A study of Mus musculus with 8 samples.

Results

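The genes described are 10 neuropeptide precursor genes of the sympathoadrenal lineage, Npy, Vip, Gal, Sst, Tac1, Cartpt, Penk, Adcyap1, Nts and Calca, of which 9 had a probe set annotated to that symbol only, among 22180 genes measured. Calca, the calcitonin and CGRP gene, had no such probe set and is not analysed here. Each of the other 9 had 1 probe set. The genes were chosen by family and with their log2 levels in these 8 tumours in view, and each probe set was the one with the highest mean, so their levels, order and combinations are given as a description.

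The samples are 8 primary subcutaneous tumours, 1 array each, all labelled as neuroblastoma derived from neural crest cells given N-Myc. All share the N-Myc transduction and a starting population in which p53+/- and p53-/- cells were mixed. About 10000 cells were injected 48 hours after infection into nude or C57Bl/6 mice, and tumours were removed after about 50 days; the labels give no age. The labels form 1 group (n = 8), state neither which host carried which tumour nor that the tumours came from separate cultures, and give no control tissue, so p-values cover only the spread between these 8 samples.

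Neuropeptides are cut from larger precursors in the secretory pathway, stored in large dense core vesicles and released together with the classical transmitter of the neuron. Noradrenergic sympathetic neurons that constrict vessels are known for neuropeptide Y (Npy), cholinergic sympathetic neurons of sweat glands for vasoactive intestinal peptide (Vip), and adrenal chromaffin cells for enkephalins (Penk) and neuropeptide Y. Galanin (Gal) rises in injured sympathetic neurons, and PACAP (Adcyap1) is a transmitter of the preganglionic fibres that drive them. Several of these genes are classical targets of cyclic AMP signalling through the cAMP response element, whose letters are TGACGTCA.

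The 250 bases before the annotated start of transcription are shown for the 4 members in which a cAMP response element core, TGACGTC on either strand, was found in that window, and for Npy, which had the largest SD of the 9 genes over the tumours and held none. Capitals mark the match. All sequences are from RefSeq on GRCm38.p6, read 5′ to 3′ on the strand of the gene. They lie at chr10:5638968-5639217 (plus strand) for Vip, chr17:93198767-93199016 (plus) for Adcyap1, chr13:99900684-99900933 (minus) for Cartpt, chr16:23890845-23891094 (minus) for Sst and chr6:49822460-49822709 (plus) for Npy.
Vip: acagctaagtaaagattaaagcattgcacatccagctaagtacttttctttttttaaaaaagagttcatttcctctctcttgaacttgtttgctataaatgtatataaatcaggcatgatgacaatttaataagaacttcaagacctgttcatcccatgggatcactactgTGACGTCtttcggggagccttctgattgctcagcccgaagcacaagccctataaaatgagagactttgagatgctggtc
Adcyap1: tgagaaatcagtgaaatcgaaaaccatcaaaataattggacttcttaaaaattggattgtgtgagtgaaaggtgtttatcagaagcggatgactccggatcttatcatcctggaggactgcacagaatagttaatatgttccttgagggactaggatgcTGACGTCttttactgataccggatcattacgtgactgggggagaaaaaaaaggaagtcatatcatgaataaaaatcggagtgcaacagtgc
Cartpt: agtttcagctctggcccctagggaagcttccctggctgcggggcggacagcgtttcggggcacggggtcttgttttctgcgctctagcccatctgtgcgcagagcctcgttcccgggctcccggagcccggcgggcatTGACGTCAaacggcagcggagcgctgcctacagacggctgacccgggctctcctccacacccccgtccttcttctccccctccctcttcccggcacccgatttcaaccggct
Sst: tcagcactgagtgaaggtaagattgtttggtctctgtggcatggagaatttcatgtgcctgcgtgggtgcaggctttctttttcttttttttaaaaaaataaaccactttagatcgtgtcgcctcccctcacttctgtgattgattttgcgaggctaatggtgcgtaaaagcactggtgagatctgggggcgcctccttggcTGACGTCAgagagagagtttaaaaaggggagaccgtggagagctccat
Npy: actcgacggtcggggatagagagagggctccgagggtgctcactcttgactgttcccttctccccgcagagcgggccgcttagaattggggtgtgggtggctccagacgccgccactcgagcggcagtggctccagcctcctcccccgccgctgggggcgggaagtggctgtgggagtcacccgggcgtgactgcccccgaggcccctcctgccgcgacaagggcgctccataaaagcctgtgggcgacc

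Of the 10 members, 9 had a promoter entry in the RefSeq table, all but Penk. The full element TGACGTCA, which contains the core on both strands, began 48 bases before the start of Sst and 112 before that of Cartpt. Vip held the core 79 bases before its start. Adcyap1 has 2 annotated starts, and its core lay 91 bases before the upstream one and 242 before the other. Over the promoters of all 27025 genes in the table, 3.16% held the core TGACGTC in this window and 1.77% the full element TGACGTCA. The E-box CACGTG, the site that N-Myc and its partner Max are known to bind, was found in Tac1 alone among the members, 61 bases before the start, and in 6.86% of all genes. A match is a description of these letters and not a measured site.

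Array background was set by 1435 probe sets for odorant, pheromone and bitter-taste receptors, genes that these tissues are not known to use, at their 95th percentile, and lay between 5.45 and 5.66 on the log2 scale. Array medians lay between 5.63 and 5.75. Expression of 7 of the 9 measured members, Npy, Vip, Gal, Sst, Cartpt, Penk and Adcyap1, was called above it (limma on all genes, Benjamini-Hochberg adjusted p under 0.05), where 57.3% of all genes were called. Tac1 and Nts were below it on average. Against the 99th percentile 5 members were called, where 41.9% of all genes were, and against the median 9, where 90.9% were. Since the members were chosen with their levels known, nothing is read from the share. For the same reason the limma p-values given below for single members are not independent evidence. Over the 8 tumours, 8 of 8 noradrenergic genes and 8 of 9 measured sympathetic transcription factors were called above background. In tumour 6 alone, 6 of the 8 and 7 of the 9 were above its background. The means of their centred levels were lowest there, at -1.67 and -1.46. Of the chromaffin cell markers 5 of 6 were called, Cartpt among them, and the other, Pnmt, the enzyme that makes adrenaline, was at 5.05 ± 0.23 (mean ± SD of log2 levels, n = 8), below background in all 8 tumours. Markers of other cells were present too: 11 of 12 macrophage, 9 of 10 fibroblast and pericyte, 6 of 8 endothelial and 6 of 10 skeletal muscle genes were called, against 1 of 8 T cell, 0 of 7 NK and B cell, 1 of 6 mast cell and 3 of 10 sensory neuron genes. Of the enteric neuron markers, 7 of 7 were called. In whole tumours, fewer cells of a type and less RNA per cell cannot be told apart.

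**Figure D1:**
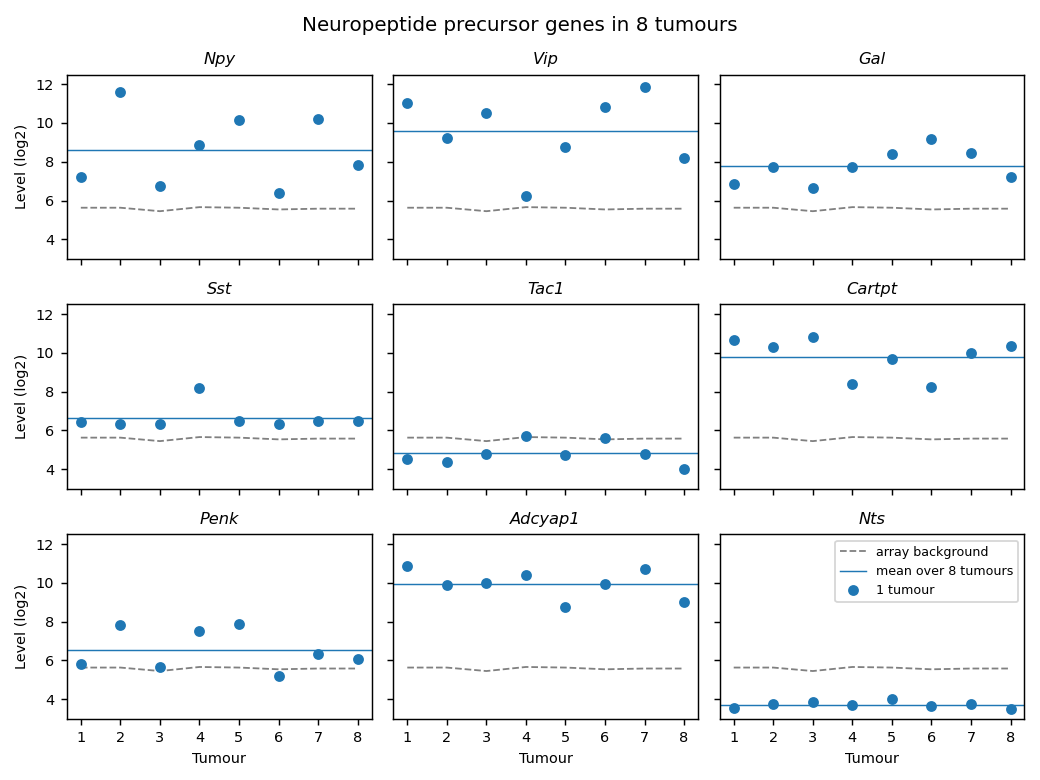
Level of each neuropeptide precursor gene (log2, vertical axis) in each of the 8 tumours (horizontal axis), 1 point per tumour, with the mean over the tumours as a blue line and the array background as a dashed line. Npy and Vip span more than 5 log2 units, while Nts lies below background in every tumour.

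Npy, the vasoconstrictor peptide of noradrenergic sympathetic neurons, was at 11.60 (tumour 2), 10.21 (tumour 7), 10.18 (tumour 5), 8.89 (tumour 4), 7.81 (tumour 8), 7.19 (tumour 1), 6.75 (tumour 3) and 6.41 (tumour 6) (log2 levels). The highest tumour thus had 36.4 times the level of the lowest on the array's scale. Tumours 2, 7 and 5 were the highest in a graded series. Every tumour was above its background, but tumour 6 by only 0.87, so the lower end of this range lies near background. Whether tumour 6 transcribes Npy was not tested. The mean was 8.63 ± 1.89 (SD, n = 8), 3.04 above background (limma, adjusted p = 0.000569). Of the 12699 genes called above background, 3 had a larger SD than Npy.

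Penk, the precursor of Met- and Leu-enkephalin, followed nearly the same order of tumours as Npy. It was at 7.89 (tumour 5), 7.81 (tumour 2), 7.52 (tumour 4), 6.35 (tumour 7), 6.07 (tumour 8), 5.83 (tumour 1), 5.68 (tumour 3) and 5.18 (tumour 6). Tumours 5, 2 and 4 stood apart at the top, and tumour 6, with a background of 5.54, was the 1 tumour below background. Tumours 1, 3 and 8 were only 0.2, 0.23 and 0.49 above theirs, and whether they transcribe Penk was not tested. The mean of 6.54 ± 1.05 (SD, n = 8) was 0.95 above background (limma, adjusted p = 0.0156), and against the 99th percentile of the receptor probe sets it was 0.05 below (-0.05, adjusted p = 0.881), so the call rests on where the background is set. Pearson's r between Npy and Penk was 0.85 and Spearman's rho 0.88 over the 8 tumours, and r was 0.74 without tumours 2 and 6, the 2 farthest from the median of Npy. Leaving out 1 tumour at a time gave 0.81 to 0.93. These correlations between members carry no p, because the genes were picked with these values known.

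Vip, a vasodilator peptide of cholinergic sympathetic and enteric neurons, had another order. It was at 11.85 (tumour 7), 11.05 (tumour 1), 10.82 (tumour 6), 10.49 (tumour 3), 9.23 (tumour 2), 8.75 (tumour 5), 8.17 (tumour 8) and 6.24 (tumour 4). Tumours 1, 6 and 3, the 3 lowest for Npy, held 3 of the 4 highest Vip levels, whereas tumour 7 was high in both and tumour 8 below the mean in both. Over the 8 tumours r between Npy and Vip was -0.21 (rho = -0.14). The mean of Vip was 9.57 ± 1.84 (SD, n = 8), 3.99 above background (limma, adjusted p = 8.67e-05). Its highest level was 48.9 times its lowest, and 6 of the called genes had a larger SD. The lowest level, in tumour 4, was only 0.58 above background, and whether that tumour transcribes Vip was not tested.

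Adcyap1, which encodes PACAP, a peptide of the same family as Vip, varied less. It was at 10.88 (tumour 1), 10.71 (tumour 7), 10.41 (tumour 4), 9.98 (tumour 3), 9.92 (tumour 6), 9.87 (tumour 2), 9.01 (tumour 8) and 8.76 (tumour 5). Tumours 1 and 7 were the top 2 for both Vip and Adcyap1, and tumours 8 and 5 were in the lowest 3 for both, but tumour 4 was lowest for Vip and among the 3 highest for Adcyap1. The correlation of the 2 genes was r = 0.40 (rho = 0.57) over all 8 tumours. Leaving out 1 tumour at a time gave 0.25 to 0.89, the highest without tumour 4. Leaving out the tumour that lies off the trend raises r, so the 0.89 is no support for a relation. The mean of Adcyap1 was 9.94 ± 0.75 (SD, n = 8), 4.35 above background (limma, adjusted p = 1.92e-08).

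**Figure D2:**
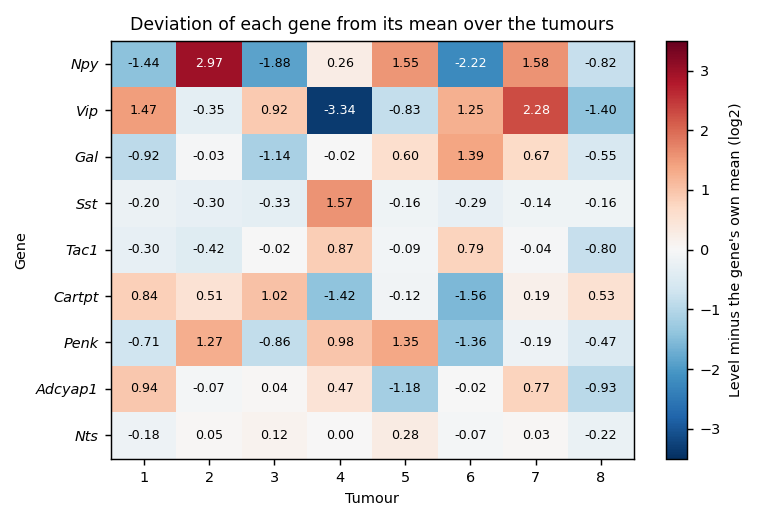
Deviation of each gene (rows) from its own mean over the 8 tumours (columns), in log2 units, red above and blue below the mean. Tumour 4 combines the lowest Vip (-3.34) with the highest Sst (1.57), and tumour 6 the lowest Npy, Cartpt and Penk with the highest Gal.

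Cartpt, the precursor of the CART peptides of sympathetic, enteric and chromaffin cells, was high in most tumours. It was at 10.83 (tumour 3), 10.65 (tumour 1), 10.34 (tumour 8), 10.32 (tumour 2), 10.005 (tumour 7) and 9.69 (tumour 5), and at 8.39 (tumour 4) and 8.25 (tumour 6). The last 2 stood clearly below the other 6. The mean was 9.81 ± 0.98 (SD, n = 8), 4.22 above background (limma, adjusted p = 3.76e-07).

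Gal, the galanin precursor, ran the other way. It was at 9.16 (tumour 6), 8.45 (tumour 7), 8.38 (tumour 5), 7.75 in tumours 4 and 2, 7.23 (tumour 8), 6.86 (tumour 1) and 6.64 (tumour 3). The levels formed a gradual series with every tumour above background, and tumours 3, 1 and 8, the lowest for Gal, were the highest for Cartpt. The mean was 7.78 ± 0.86 (SD, n = 8), 2.19 above background (limma, adjusted p = 1.58e-05). Between Gal and Cartpt r was -0.73 and rho -0.90, with r from -0.90 to -0.53 when 1 tumour was left out, -0.38 without tumours 3 and 6, the 2 farthest from the median of Gal, and -0.94 without tumours 4 and 6.

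Tumours 4 and 6 also differed from the others in markers of crest progenitors and glia. The mean of the 9 measured genes of that list, each centred on its own mean, was 2.42 (tumour 4) and 1.07 (tumour 6), against -0.85 to -0.27 in the other 6, and 9 and 8 of the 9 genes were above background there, against 4 or 5 elsewhere. Sox10, the defining transcription factor of these cells, was at 8.32 (tumour 4) and 8.05 (tumour 6), against 5.43 to 6.30. Skeletal muscle markers were highest in tumour 6 as well, with a mean of the centred levels of 1.28 over 10 genes, against -0.90 to 0.84 in the other 7, and 7 of the 10 were highest there. The part of such cells in the Npy, Penk, Cartpt and Sst levels was not tested.

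Sst, the somatostatin precursor, was high in 1 tumour. It was at 8.20 (tumour 4), and at 6.50 (tumour 7), 6.48 (tumour 8), 6.47 (tumour 5), 6.44 (tumour 1), 6.34 (tumour 6), 6.33 (tumour 2) and 6.31 (tumour 3). The other 7 tumours lay close together. The call above background (mean 6.63 ± 0.64, SD, n = 8; 1.04 above, limma, adjusted p = 0.000252) was 0.83 above without tumour 4 (adjusted p = 1.10e-07), and 0.04 above against the 99th percentile of receptor probe sets (adjusted p = 0.847). The same rule called Oxt (1.01 above background, SD 0.15, n = 8), the oxytocin precursor of the hypothalamus, and whether the 7 flat tumours transcribe Sst was not tested.

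Tac1 and Nts were not called. Tac1, the precursor of substance P, was at 5.69 (tumour 4) and 5.61 (tumour 6), which are 0.02 and 0.07 above background, and at 4.02 to 4.80 in the other 6 (mean 4.82 ± 0.57, SD, n = 8). Nts, the neurotensin precursor, was at 3.49 to 3.99 in all 8 tumours (mean 3.71 ± 0.16), 1.88 below background. Both genes are known from sensory or enteric neurons. Calcb, the paralogue of Calca that encodes beta-CGRP, was below background in every tumour (5.20 ± 0.22, SD, n = 8).

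**Figure D3:**
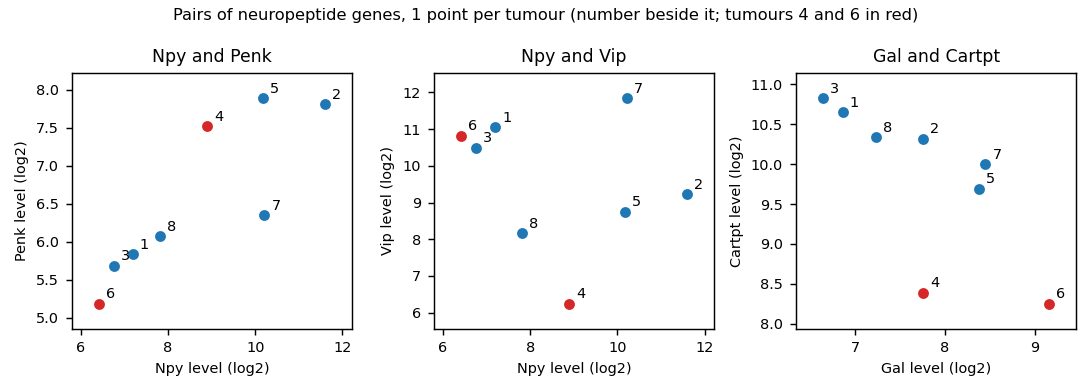
Levels (log2) of Npy and Penk, Npy and Vip, and Gal and Cartpt, 1 point per tumour with its number, tumours 4 and 6 in red. Npy and Penk order the tumours alike (r = 0.85), the order of Npy differs from that of Vip (r = -0.21), and Gal and Cartpt are opposed (r = -0.73).

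The combination of members above and below their means differed between tumours, except that tumours 1 and 3 lay on the same side of the mean for each of the 7 called members. Tumours 2 and 5 held high Npy and Penk with Vip below its mean. Tumours 1 and 3 held high Vip and Cartpt with Npy and Penk below their means. Tumour 7 held high Npy, Vip, Gal and Adcyap1, tumour 6 high Vip and Gal with the lowest Npy, Penk and Cartpt, and tumour 4 high Sst, Penk and Adcyap1 with the lowest Vip. Tumour 8 was below the mean for every called member except Cartpt. Some of these sides rest on very small deviations from the mean. Adcyap1 was at 0.04 (tumour 3), -0.02 (tumour 6) and -0.07 (tumour 2), and Gal at -0.03 (tumour 2) and -0.02 (tumour 4). The mean of Sst is raised by tumour 4, and the other tumours lay at -0.33 to -0.14.

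The members were also set beside the transmitter phenotype, whose genes the choice of members did not use. The member levels in these relations are the ones known when the members were chosen, so the p-values are not independent evidence. Noradrenergic sympathetic neurons are known for Npy and cholinergic ones for Vip, so each of the 7 called members was set against the mean of 8 noradrenergic genes (Th, Ddc, Dbh, Slc18a1, Slc18a2, Slc6a2, Gch1 and Cyb561) and of the 3 called cholinergic genes (Slc18a3, Ache and Prima1), each gene centred on its mean. The noradrenergic score was 0.87 (tumour 2), 0.85 (tumour 8), 0.65 (tumour 5), 0.18 (tumour 7), -0.07 (tumour 4), -0.31 (tumour 1), -0.50 (tumour 3) and -1.67 (tumour 6). Its most variable genes were Dbh (10.15 ± 1.88, SD, n = 8), which makes noradrenaline, and Ddc (8.31 ± 1.69), which makes dopamine. Of the 14 relations, 0 passed a Benjamini-Hochberg adjusted p under 0.05 in a two-sided exact permutation test over all 40320 pairings, and 2 had an unadjusted p under 0.05, by Pearson's r and by Spearman's rho alike.

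Those 2 were Npy and Penk with the noradrenergic score. For Npy, r was 0.73 (exact permutation p = 0.0330, adjusted p = 0.325) and rho 0.83 (exact p = 0.0154, adjusted p = 0.195), and r was 0.52 without tumours 2 and 6, the 2 farthest from the score's median. For Penk, r was 0.70 (exact permutation p = 0.0464, adjusted p = 0.325) and rho 0.79 (exact p = 0.0279, adjusted p = 0.195), and r was 0.41 without the same 2 tumours. The outcome of both tests depends on tumour 8: without it r was 0.89 for Npy and 0.86 for Penk, each with an adjusted p of 0.0403 (exact permutation). That tumour had a high score but Npy at 7.81 and Penk at 6.07. Leaving out the tumour that lies off the trend raises r, so the lower p is no support for a relation. Leaving out any other single tumour gave an adjusted p of 0.346 or above for both genes (exact permutation).

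No relation of the other members passed the test. With the noradrenergic score r was -0.40 for Vip and for Adcyap1, -0.28 for Gal, 0.02 for Sst and 0.47 for Cartpt (exact permutation, adjusted p of 0.647 or above). For Cartpt r was -0.07 without tumour 6, which had the lowest level of both. With the cholinergic score r was 0.12 for Vip (exact permutation p = 0.774, adjusted p = 0.903), 0.52 for Gal and -0.53 for Cartpt (adjusted p = 0.647 for both). That score was 0.41 (tumour 5), 0.24 (tumours 1, 4 and 6), 0.19 (tumour 7), -0.32 (tumour 3), -0.42 (tumour 2) and -0.58 (tumour 8). Of its genes, Prima1 was lowest in tumour 6 (5.67). Over the 5 listed cholinergic genes, called or not, the mean of the centred levels was highest in tumour 6 (0.73). Relations with that 5-gene mean were not tested. Chat, which makes acetylcholine, and Slc5a7, the choline transporter, were not called over the 8 tumours; both were highest in tumour 6, at 7.21 and 7.19, where Vip was at 10.82, and Slc18a3, the vesicular acetylcholine transporter, was highest there too (10.68), against 7.23 to 9.83 elsewhere. A p that misses the threshold with 8 tumours does not show that a relation is absent.

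**Figure D4:**
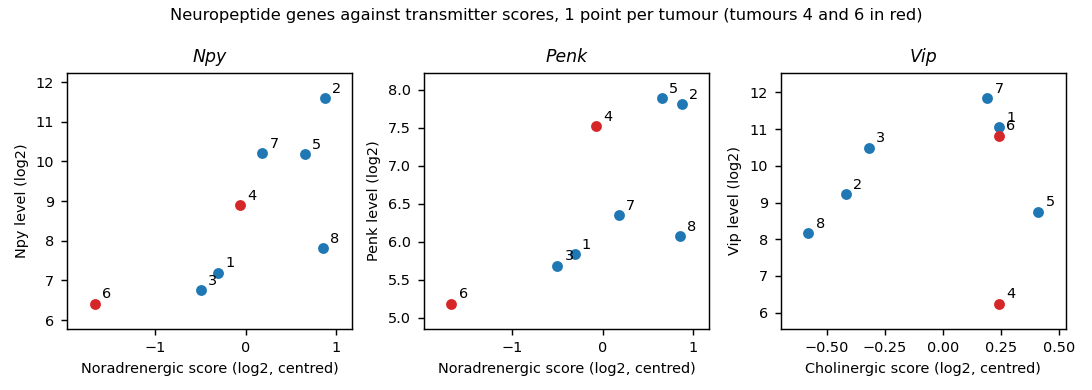
Levels (log2) of Npy and Penk against the noradrenergic score and of Vip against the cholinergic score (mean of centred log2 levels), 1 point per tumour with its number, tumours 4 and 6 in red. Npy and Penk are higher at higher scores apart from tumour 8 (r = 0.73 and 0.70), and for Vip against the cholinergic score r was 0.12.

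For each called member, the 3 genes with the most similar course over the 8 tumours were taken from 1190 called genes with an SD of at least 0.5, as a description. For Npy these were Cyp4f16 (r = 0.879), C2cd4a (0.867) and C2cd4b (0.862). For Penk they were Nkx6-1 (r = 0.973) and Tbx20 (0.920), both transcription factors of neural development, and Fah (0.905), an enzyme of tyrosine breakdown. Tbx20 was at 9.06 (tumour 5), 8.33 (tumour 4), 7.98 (tumour 2) and 7.48 (tumour 7), against 5.51 to 6.14 in the other 4. Cartpt was most like Tlx3 (r = 0.970, rho = 0.93), a homeobox gene of peripheral neuron development, at 8.42 (tumour 3) and 6.63 (tumour 6), and like Sp4 (0.952) and Rgs7 (0.929). Gal was most like Igfbp4 (r = 0.895), Ebf1 (0.828), a transcription factor, and Hs3st4 (0.805), and Adcyap1 like Nfib (0.938), a transcription factor, Gria3 (0.924), a glutamate receptor subunit, and Lrrtm1 (0.902). For Sst, Hoxa6 (r = 0.979, rho = 0.55), Efhd1 (0.978) and Itga7 (0.960) shared the high value in tumour 4. These are the 3 highest of 1190 values of r for each member, so none is evidence of a relation.

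The genes most like Vip were Col12a1 (r = 0.867), Col1a1 (0.854) and Vgf (0.851, rho = 0.95), the last a secretory granule protein gene that is itself cut into peptides. The first 2 are collagen genes of fibroblasts. The mean of the 10 centred fibroblast and pericyte markers was 0.68 (tumour 3), 0.49 (tumour 7), 0.35 (tumour 6), -0.05 (tumour 8), -0.19 (tumour 5), -0.28 (tumour 2), -0.49 (tumour 1) and -0.51 (tumour 4), and their mean level ran from 7.42 to 8.61. Of these markers 9 of 10 were called, and Lum, a fibroblast matrix gene, was below background in every tumour. Tumour 1 had the second highest Vip and the second lowest fibroblast mean, and the part of fibroblasts in the Vip levels was not tested.

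Of the receptor genes for these peptides, 12 of 28 measured, or 42.9%, were called above background, where 57.3% of all genes were. The same rule called Oxt, 1.01 above background, and Gast, a hormone gene of another organ, 1.73 above. For receptor genes called nearer to background than Gast, transcription was not tested. Adcyap1r1, the PACAP receptor, was above background in every tumour, at 8.64 to 9.52 (9.08 ± 0.35, SD, n = 8; limma, adjusted p = 4.69e-12). Vipr2, which binds VIP and PACAP, was 0.28 above background (5.86 ± 0.14, limma, adjusted p = 0.000412), and Vipr1 was not called (5.67 ± 0.25, adjusted p = 0.302).

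The Npy receptors Npy1r (5.55 ± 0.49, SD, n = 8), Npy2r (5.86 ± 1.57), Npy4r (4.72 ± 0.15) and Npy5r (5.21 ± 0.19) were not called. Npy2r, which inhibits release from the nerve ending that carries it, was nevertheless at 8.53 (tumour 1), 7.60 (tumour 3) and 6.55 (tumour 7), against 4.19 to 5.79 in the others. Tumours 1 and 3 were among the 3 lowest for Npy, and tumour 6, the lowest for Npy, had the lowest Npy2r as well and the highest Npy1r (6.65).

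Somatostatin receptors were called for 4 of 5 genes, where 57.3% of all genes were, Sstr3 (6.70 ± 0.16, SD, n = 8), Sstr4 (6.27 ± 0.47), Sstr2 (6.17 ± 0.42) and Sstr5 (5.75 ± 0.15), and not for Sstr1 (4.95 ± 0.25). Sstr2, the receptor that somatostatin analogue scans detect, was at 6.97 (tumour 8) and 6.57 (tumour 7), against 5.80 to 6.31 elsewhere, and Sstr4 was at 7.27 (tumour 8), against 5.77 to 6.58. Tumour 4, which held the high Sst, had Sstr2 at 6.05. Of the opioid receptors, Oprd1, the delta receptor that enkephalins bind, was called (6.14 ± 0.31, limma, adjusted p = 0.000156), while Oprm1 (5.95 ± 0.52, adjusted p = 0.0553) and Oprk1 (4.74 ± 0.26) were not. Neither galanin receptor measured was called (Galr1 at 5.72 ± 0.23 and Galr2 at 4.45 ± 0.08). The called somatostatin receptors lay 0.16 (Sstr5) to 1.11 (Sstr3) above background, and Oprd1 lay 0.56 above. Oxt was called at 1.01 above, with little spread between tumours (SD 0.15, n = 8). Whether the tumours transcribe the called somatostatin and opioid receptor genes was not tested.

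The receptors of peptides whose precursors were not called or not analysed differed among themselves. The neurotensin binding proteins Sort1 (9.42 ± 0.15, SD, n = 8), a sorting receptor with many other ligands, and Ntsr2 (7.84 ± 0.45) were called, and Ntsr1 (5.26 ± 0.45) was not. Tacr1, Tacr2 and Tacr3, the tachykinin receptors, were not called (5.46 ± 0.16, 4.71 ± 0.18 and 4.47 ± 0.19). Ramp1, Ramp2 and Ramp3, which form CGRP and adrenomedullin receptors with Calcrl, were called (5.86 ± 0.39, 6.64 ± 0.47 and 7.09 ± 0.37), and Calcrl itself was not (6.42 ± 1.16, adjusted p = 0.0561). Calcrl was at 8.52 (tumour 6), 7.39 (tumour 3) and 7.20 (tumour 4), against 5.16 to 6.11 elsewhere. Calcrl and Ramp2 are also known from endothelium, of which 6 of 8 markers were called, with a mean of the centred levels of 0.79 (tumour 4), 0.34 (tumour 3) and -0.03 (tumour 6), and from -0.61 to 0.12 in the other 5; the part of endothelium was not tested.

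**Figure D5:**
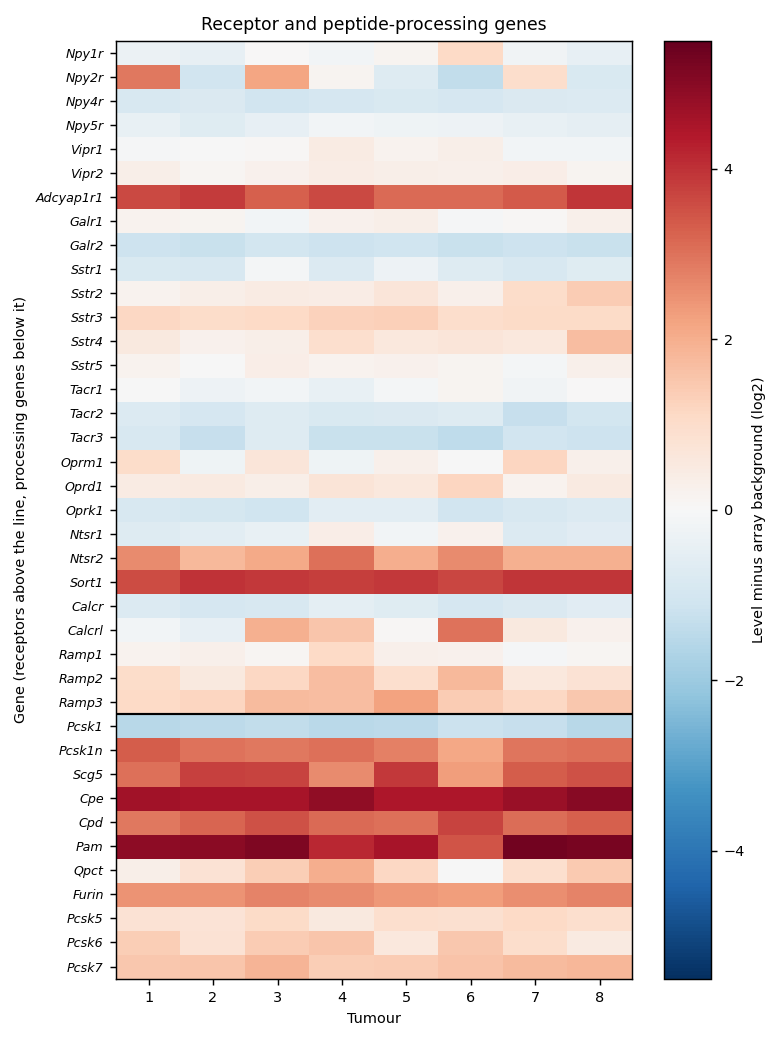
Level minus array background (log2, colour) of 28 receptor genes (above the line) and 11 peptide-processing genes (below it) in each of the 8 tumours (columns), red above and blue below background. Adcyap1r1, Sort1, Cpe and Pam are above background in all 8 tumours and Pcsk1 in none.

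The genes that process the precursors were called for 10 of 11 measured, or 90.9% against 57.3% of all genes. Pam, which amidates the end of NPY, VIP, PACAP and galanin, was at 10.29 ± 0.64 (SD, n = 8), lowest in tumour 6 (8.98) and highest in tumour 7 (10.89). Cpe, the carboxypeptidase that trims cut peptides, was at 10.24 ± 0.23, Scg5, the chaperone of the convertase PC2, at 8.86 ± 0.57, Cpd at 8.81 ± 0.22 and Pcsk1n, an inhibitor of the convertase PC1, at 8.48 ± 0.38. Pcsk1, the gene of PC1 itself, was below background in all 8 tumours (4.19 ± 0.11), and Pcsk2 is not analysed here. Qpct, which closes the first residue of some peptides into pyroglutamate, ranged from 5.52 (tumour 6) to 7.66 (tumour 4). Tumour 6 was the lowest for 5 of the 11, and the share of all genes lowest there is not given, so nothing is read from this count. Peptidases that break neuropeptides down were called for 9 of 11 genes, among them Prep (10.33 ± 0.13), Dpp3 (9.60 ± 0.16), Ide (9.59 ± 0.14), Ece2 (8.51 ± 0.12), Anpep (7.14 ± 0.41) and Ece1 (8.34 ± 0.72, from 7.02 (tumour 1) to 9.58 (tumour 6)), but not Mme (3.94 ± 0.07), the neprilysin gene, nor Dpp4 (4.38 ± 0.14), whose enzyme shortens NPY.

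Pathways known to drive peptide genes in sympathetic neurons were measured too. Of 15 genes of the gp130 cytokine and BMP pathways, which are known to turn sympathetic neurons towards Vip, 9 were called, or 60.0%, close to the 57.3% of all genes, with the receptors Cntfr (10.83 ± 0.28, SD, n = 8), Bmpr2 (10.69 ± 0.15) and Lifr (9.78 ± 0.80) and the signal transducer Stat3 (10.01 ± 0.30). Lifr was lowest in tumour 6 (8.07), where Vip was at 10.82, and highest in tumour 7 (10.55), where Vip was highest too (11.85). In tumour 8 Lifr was nearly as high (10.51), with Vip at 8.17. The relation of Lifr to Vip was not tested. The cytokine Lif was not called (5.69 ± 0.18). Of 12 cAMP and activity response genes 9 were called, or 75.0% against 57.3% of all genes, with Sik1 (9.12 ± 0.37), Per1 (9.08 ± 0.23), Nr4a1 (8.38 ± 0.73) and Nr4a2 (7.94 ± 0.54), and 8 of the 12 were highest in tumour 6. Among those 8, Nr4a3 and Pde4d were not called. Of the 9 measured sympathetic transcription factors 5 were lowest in tumour 6, the tumour with the lowest Npy, Penk and Cartpt and the highest Gal. These were Isl1 (11.32 ± 0.46), Hand2 (10.57 ± 0.35), Tfap2b (10.43 ± 2.28), Gata3 (9.22 ± 0.97) and Gata2 (8.22 ± 1.43), while Insm1 was highest there (8.80). The share of all genes with their highest or lowest level in tumour 6 is not given, so nothing is read from these counts.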

How the data were processed

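Total RNA of 8 tumours was hybridised to Affymetrix arrays, 1 per tumour, and the deposited log2 levels per probe set are the authors' RMA output; Partek 6.5 is the other tool that the submitters' processing notes list, with no step assigned. The range of the values, 2.07 to 13.61, shows the log2 scale. Arrays carry no count, and their number limits the precision. Of 41345 probe sets, 23521 carry 1 gene symbol in the platform annotation, 1814 carry several and 16010 are unnamed here. Each gene was read from its single-symbol probe set with the highest mean, and probe sets with several symbols named none.

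Detection was tested with limma 3.58.1 (R 4.3.3; trend and robust prior) on the level minus the array background over all 22180 genes. Relations were tested by exact permutation in Python 3.11.15 (numpy 2.4.6, pandas 2.3.3, scipy 1.17.1, plots matplotlib 3.10.9). Both were tested on simulated data. Mean levels of different probe sets were ranked only to choose which genes to name.

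The members and gene lists were chosen with earlier results of these data known. Named are all members, the 3 genes most like each called member, the receptors, and from each other list the 4 genes with the highest mean and the 2 called genes with the largest SD; any other gene was chosen after its values were seen. Alternatives were the mean of all probe sets, new quantile normalization, median centring, 2 other background levels, limma without trend and robust prior, Spearman's rho, leaving out each tumour, and, added after seeing the data, leaving out tumours 4 and 6.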

Additional observations from a re-analysis of the deposited data

Results flagged for a closer look

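Of 187 results (the members, the scores, the measured genes of the gene lists that are not marker lists, the genes most like each member, Sox10, Pnmt and Lum, and the means of 4 marker lists), 21 had 1 tumour far from the other 7 by Dixon's criterion (gap over range above 0.526), which chance gives in about 1 of 20. In 10 of the 21 that tumour was tumour 6 and in 7 it was tumour 4. The 187 results are not independent, since some genes were picked for their likeness to a member. The share of all genes flagged in each tumour is not given, so nothing is read from these counts.

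Tumour 6 was low for Dbh (5.72, against 9.87 to 11.43), Tfap2b (4.88, against 10.39 to 11.63), Gata3 (6.93, against 9.01 to 9.83), Lifr (8.07, against 9.67 to 10.55) and Pcsk1n (7.66, against 8.36 to 8.94). It was high for Ebf1 (11.54, against 8.55 to 9.90), Prok2 (7.61, against 5.21 to 5.83), Npw, the precursor of neuropeptide W (7.53, against 6.07 to 6.45), Chat (7.21, against 5.02 to 6.04) and Npy1r (6.65, against 5.14 to 5.79).

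Tumour 4 was high for Sst (8.20, against 6.31 to 6.50), and for Hoxa6 (9.35, against 5.95 to 6.72), Itga7 (8.35, against 6.21 to 6.67) and Efhd1 (7.65, against 5.61 to 6.10), which were picked for their likeness to Sst. It was also high for Tlx2 (7.57, against 6.03 to 6.70), Bmp6 (6.83, against 5.25 to 5.54) and Ramp1 (6.75, against 5.51 to 5.92).

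Tumour 8 was high for Slc6a2, the noradrenaline transporter (7.04, against 5.67 to 6.28), and Crem (6.65, against 5.87 to 6.22). Tumour 3 was low for Uts2 (4.81, against 5.11 to 5.31) and high for Il6 (3.80, against 3.09 to 3.43), which lies below background there.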

How the results depend on the processing

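The called members numbered 7 after new quantile normalization, without trend and robust prior, and without each tumour in turn. Leaving out tumours 4 and 6 also gave 7. Median centring and the mean of all probe sets gave 7 too, but could not change the members' distances from background. Centring shifts a level and its array's background alike, and each member had 1 probe set. The count was 5 against the 99th percentile of receptor probe sets, where Penk was at -0.05. Against their median it was 9, where Tac1 was at 1.35 and Nts at 0.24. The count of genes above background was 9288 (41.9%) against the 99th percentile, 20163 (90.9%) against the median and 12606 to 12675 without 1 tumour. The count of relations past the threshold was 0 to 2 without 1 tumour, with 2 reached without tumour 8, and 0 otherwise. Some relations changed sign. Leaving out 1 tumour, r with the noradrenergic score ran from -0.49 to 0.51 for Gal, from -0.21 to 0.46 for Sst and from -0.07 to 0.65 for Cartpt, and r with the cholinergic score from -0.18 to 0.40 for Npy, from -0.09 to 0.47 for Vip, from -0.17 to 0.41 for Penk and from -0.05 to 0.80 for Adcyap1. Without tumours 4 and 6, r was 0.56 for Gal and -0.63 for Cartpt with the noradrenergic score and 0.15 for Npy with the cholinergic score. Without the 2 tumours farthest from the score's median, r was 0.53 for Gal, -0.12 for Sst and -0.17 for Cartpt with the noradrenergic score, and 0.50 for Npy, -0.25 for Vip and -0.20 for Adcyap1 with the cholinergic score. The cause was not tested. No paired analysis was possible because the labels form 1 group.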

Other observations

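Among 50 other neuropeptide and peptide hormone precursor genes measured, 19 were called above background, or 38.0%, where 57.3% of all genes were called. Ghrh, the growth hormone releasing hormone precursor, was at 9.62 (tumour 2) and 9.03 (tumour 5), against 5.73 to 7.63 in the other 6, and these were the 2 tumours with the highest Penk. Pnoc, the precursor of the opioid-like peptide nociceptin, was at 9.82 (tumour 8), 8.18 (tumour 7) and 8.04 (tumour 2), and lowest in tumour 3 (6.46), so the tumour with most members below their means had the highest Pnoc. Prok2, a secreted peptide that attracts neural progenitors, was at 7.61 (tumour 6), against 5.21 to 5.83 elsewhere, and Adm, the adrenomedullin precursor, at 7.24 (tumour 5) and 6.89 (tumour 2), against 4.54 to 6.20.

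Several hormone genes of other organs were called with levels that hardly differed between tumours, among them Gast (7.31 ± 0.24, SD, n = 8), Ppy (6.68 ± 0.26), Avp (6.65 ± 0.19) and Edn3 (6.60 ± 0.17).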
